A study of Mus musculus with 7 samples.

Results

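The genes described are the matrix metalloproteinases (MMPs), the ADAMTS proteases, the ADAMTS-like proteins and the tissue inhibitors of metalloproteinases (TIMPs). They were taken by name from the array's design, as every gene called Mmp, Timp, Adamts or Adamtsl with a number, which gave 51 of the 34792 gene names on the array. These 51 genes had 74 probes in 92 spots, and 22 of them had more than 1 probe.

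MMPs and ADAMTS proteases are zinc enzymes that cut collagens, proteoglycans and other proteins of the extracellular matrix. Most are made as inactive precursors, and TIMPs block the active enzymes by binding to the catalytic site. In the heart, fibroblasts are a main source of these proteins, and turnover of the matrix accompanies development, repair and scarring.

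Total RNA of 7 mouse samples was measured on single-colour Agilent expression arrays, 1 array per sample. Postmortem CMPs (cardiac mesenchymal progenitors, adherent stromal cells cultured from adult C57BL/6 hearts) came from tissue kept for 24 h at 4 °C after death, with 1 ventricular and 1 atrial array. Living CMPs came from tissue of living animals, again with 1 ventricular and 1 atrial array, and all 4 cultures were grown on collagen I in medium with basic fibroblast growth factor (40 ng/ml) and 10% fetal bovine serum. Adult heart was 1 array of purchased total RNA, whose strain and age were not given in the sources used here. Fetal heart was 1 wild-type C57BL/6 array and 1 array of the transgenic line C57BL/6-Tg(Myh6-EGFP)MG2, which carries a green fluorescent protein under the cardiomyocyte promoter of Myh6, both from embryonic day 16.5. Nothing in the labels says that the arrays of a group are separate cultures or animals, so p-values take in only how these samples scatter. That scatter comes from the gap between wild-type and transgenic fetal heart, and from that between the ventricular and atrial postmortem-minus-living differences. It may be technical, and in the fetal pair it cannot be told apart from genotype.

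An array showed 46.5% to 52.5% of its probes well above background, and no spot of a member was saturated. All 7 arrays lay on 1 slide and were scanned together, with the CMPs in the first row of the slide and the hearts in the second, so slide row and the contrast of cells with heart cannot be told apart. The number of arrays limits the precision. The postmortem atrial array stood apart, with gaps of 2-fold or more to each of the other cultures at 14 to 20 of the 41 members seen on any array (18.8% to 21.3% of all genes). The other 3 CMP arrays differed so from one another at 5 to 9 of the members (9.65% to 10.9% of all genes), and the 2 fetal hearts at 10 (14.6%). Levels below are log2 processed signal minus the array's 75th percentile, so 0 stands at that percentile, and a level is compared between samples for 1 probe, never between genes.

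The labelled cell type was set against its markers first. All 9 mesenchymal and fibroblast markers were well above background on every array, and their summed level (on the linear scale) was 2411 to 3045 in CMPs, against 679 in adult heart and 842 to 867 in fetal heart. The sum of 9 cardiomyocyte markers was 1.41 to 17.4 in CMPs, against 6463 in adult heart and 2713 to 4756 in fetal heart. Macrophage markers summed to 48.0 to 71.4 in CMPs. Of these 10 markers Cd68, Csf1r, Lyz2, Cd14 and Itgam were well above background on all 4 CMP arrays, Ptprc on the living ventricular array alone, and Emr1, Mrc1, Cd163 and Fcgr1 on no CMP array. The same list summed to 111 in adult heart, with 10 markers above background, and to 31.0 to 36.2 in fetal heart, with 9. Itgam alone made up 89.0% to 90.3% of the sum in CMPs and 24.8% to 39.1% of that in the hearts. Of the 9 macrophage markers tested against fetal heart, 5 were lower and 2, Itgam and Cd14, higher in CMPs (limma, adjusted p under 0.05). Of all genes tested there, 25.2% were lower and 22.8% higher. Against adult heart 9 of the 10 tested were lower and 0 higher, beside 24.6% and 24.6% of all genes. The 10 neutrophil markers summed to 62.2 to 90.8 in CMPs, 103 in adult heart and 58.4 to 75.9 in fetal heart. On every array Csf3r was the largest term of this sum. Its log2 levels were 5.62 to 6.34 in CMPs, 6.55 in adult heart, and 5.75 and 6.13 in fetal heart. Endothelial markers summed to 10.1 to 18.6 in CMPs, against 43.0 in adult heart and 40.3 to 48.1 in fetal heart. Mesothelial markers summed to 0.388 to 1.52 in CMPs, against 13.3 in adult heart and 36.7 to 47.2 in fetal heart. In RNA of whole tissue, fewer cells of a type and less RNA per cell cannot be told apart, and the part of these cell mixtures in the differences below was not tested.

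On chromosome 9, 10 of the MMP genes lie side by side, with probes spanning 414.9 kb from position 7282762 to 7697700 of build mm9. Promoter sequence was looked up for all 51 members in RefSeq (build GRCm38.p6, 250 bases before to 50 after the start of each gene), and 36 were found. AP-1, the dimer of Fos and Jun proteins that carries growth factor and cytokine signals to many MMP genes, binds the motif TGAGTCA or its reverse TGACTCA. Searched on both strands, the motif stood in the windows of 7 of the 10 cluster genes, in none of the 26 other members found, and in 1607 (5.946%) of 27025 genes overall. A match of letters is a description and not a binding site. The stretches around the 7 matches are printed because these neighbouring genes share the motif and yet were seen on very different sets of arrays, as described further on. Capitals mark the motif, each line reads 5′ to 3′ on the strand of the gene, and all lie on chromosome 9.
Mmp13: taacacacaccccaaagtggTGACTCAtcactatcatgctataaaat
Mmp12: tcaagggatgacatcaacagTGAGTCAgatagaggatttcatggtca
Mmp1b: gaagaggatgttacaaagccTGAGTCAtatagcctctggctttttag
Mmp3: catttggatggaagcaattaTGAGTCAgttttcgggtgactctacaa
Mmp1a: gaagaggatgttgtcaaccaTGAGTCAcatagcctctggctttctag
Mmp10: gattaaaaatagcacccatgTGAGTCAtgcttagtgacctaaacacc
Mmp7: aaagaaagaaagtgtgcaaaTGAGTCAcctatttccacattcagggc

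In GRCm38.p6 these stretches are chr9:7272459-7272505 (Mmp13), chr9:7347310-7347356 (Mmp12), chr9:7388093-7388139 (Mmp1b), chr9:7445756-7445802 (Mmp3), chr9:7464048-7464094 (Mmp1a), chr9:7502259-7502305 (Mmp10) and chr9:7692007-7692053 (Mmp7), all on the plus strand except that of Mmp1b, which is on the minus strand. The motif began 35 bases before the annotated start in Mmp13, 44 in Mmp12, 46 in Mmp3, 63 in Mmp10, 63 in Mmp7, 73 in Mmp1a and 93 in Mmp1b. The stretches of Mmp1a and Mmp1b, a pair of near copies that are the mouse counterparts of human MMP1, had the same base at 40 of 47 positions. A TATA motif (TATAAA or its reverse TTTATA) was in the windows of 9 of the 10 cluster genes, of 3 of the 26 other members found, and of 15.667% of all genes. Mmp8 and Mmp20, also in the cluster, had the TATA motif without the AP-1 letters, and Mmp27 had neither.

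Counted on 1 probe per gene, 41 of the 51 members were well above background on at least 1 array, 20 on all 7 and 26 on all 4 CMP arrays. The 20 were Timp1, Timp2, Timp3, Mmp2, Mmp11, Mmp14, Mmp17, Mmp23, Adamts1, Adamts2, Adamts5, Adamts7, Adamts9, Adamts10, Adamts14, Adamts15, Adamtsl1, Adamtsl2, Adamtsl4 and Adamtsl5. On CMP arrays and on no heart array, 7 were above background: Mmp27 and Adamtsl3 on all 4 CMP arrays, and Mmp1b, Mmp8, Mmp10, Mmp16 and Mmp24 on some of them. On heart arrays and on no CMP array 6 were above it, namely Mmp9, Mmp12, Adamts16, Adamts17, Adamts18 and Adamts19. The remaining 10 were not well above background on any array: the collagenases Mmp1a and Mmp13, the matrilysin Mmp7, Mmp20, Mmp21, Mmp25, Mmp28, Adamts3, Adamts13 and Adamts20. For these 10 the arrays set an upper bound and no level.

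**Figure D1:**
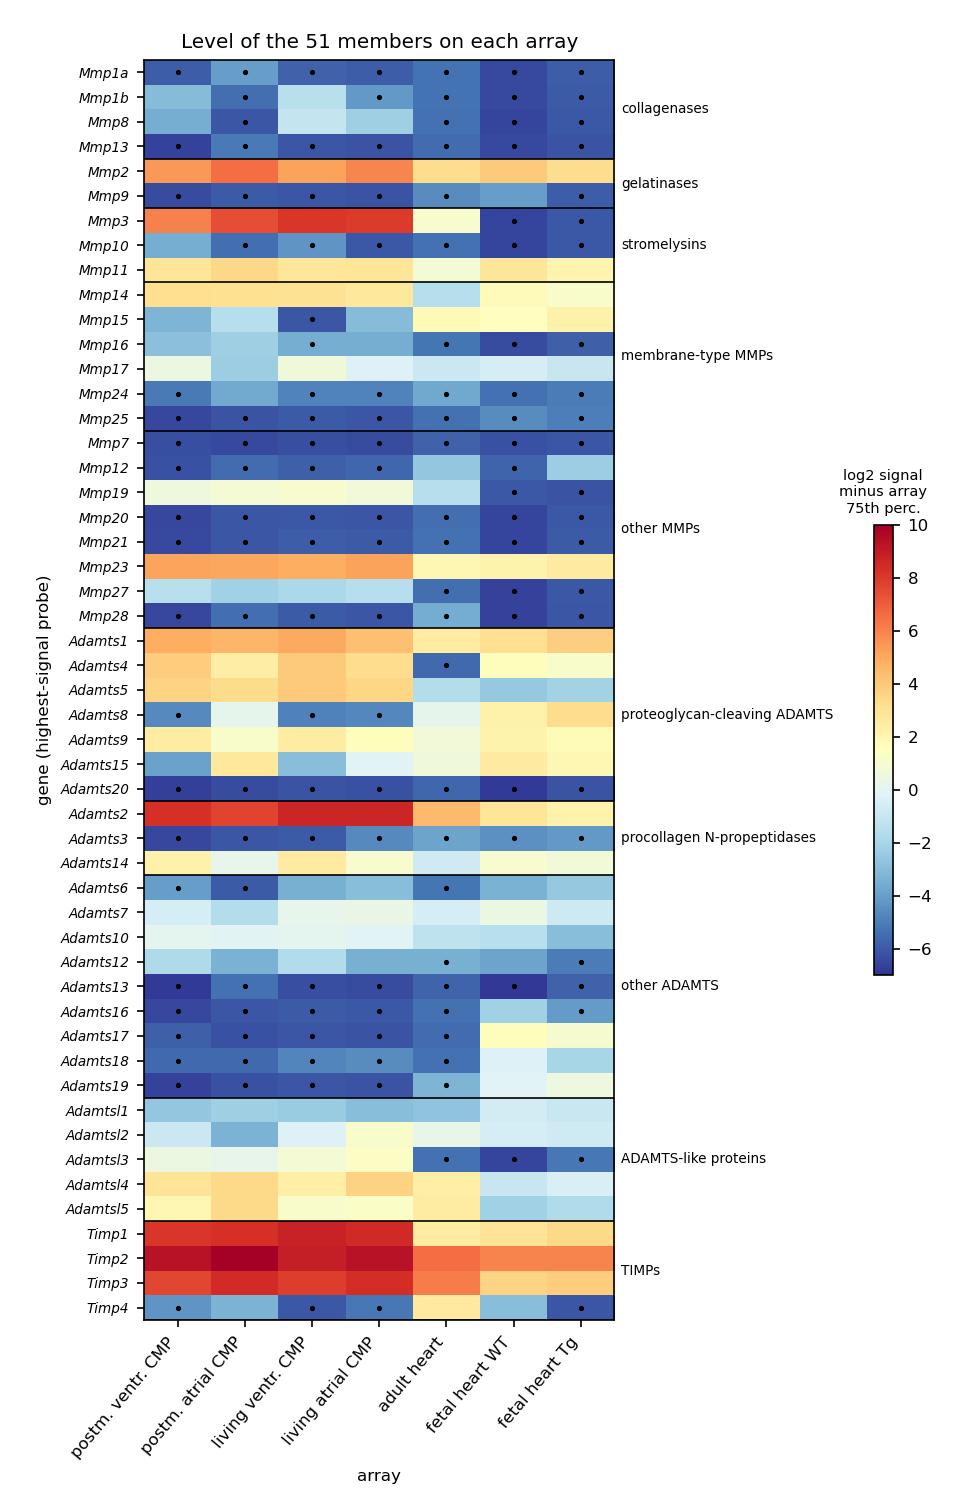
Level of each of the 51 members (rows, by group) on the 7 arrays (columns), as log2 signal minus the array's 75th percentile, with a black dot where the probe was not well above background. Colours are to be compared along a row: Mmp3, Timp1 and Adamts2 are bright in the 4 CMP columns and dimmer in the hearts, and Adamts17, Adamts18 and Adamts19 carry signal in the fetal columns only.

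Set against fetal heart, CMPs carried more RNA for 3 of the 4 TIMPs, for the gelatinase Mmp2, for the stromelysin Mmp3 and for the aggrecan-cleaving Adamts4 and Adamts5, and less for Mmp15 and for Adamts17, Adamts18 and Adamts19. In this comparison 32 members were tested, of which 18 were higher and 7 lower in CMPs (limma, adjusted p under 0.05). Of all 20052 genes tested, 22.8% were higher and 25.2% lower. The members' median difference was 1.77 on the log2 scale, and that of all genes was -0.01. Testing asked for a probe well above background throughout at least one of the groups compared, so a member seen in a single group had to differ.

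Against adult heart, 17 of 30 members tested were higher and 3 lower in CMPs, with 24.6% of all 20278 genes higher and 24.6% lower. The median difference of the members was 2.03, and that of all genes 0.00. The adult heart is 1 array, assumed in the fit to vary as the other groups do, and the comparisons with adult and fetal heart share the CMP arrays. In adult against fetal heart, 7 of 31 members tested were higher and 9 lower, beside 18.8% and 18.2% of all 20946 genes, with medians of -0.32 for the members and 0.09 for all genes. Adult heart carried more Timp3, Timp4, Mmp3, Mmp19, Adamts2, Adamtsl4 and Adamtsl5 than fetal heart, and less Mmp11, Mmp14, Adamts4, Adamts9, Adamts14, Adamts17, Adamts18, Adamts19 and Adamtsl1.

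**Figure D2:**
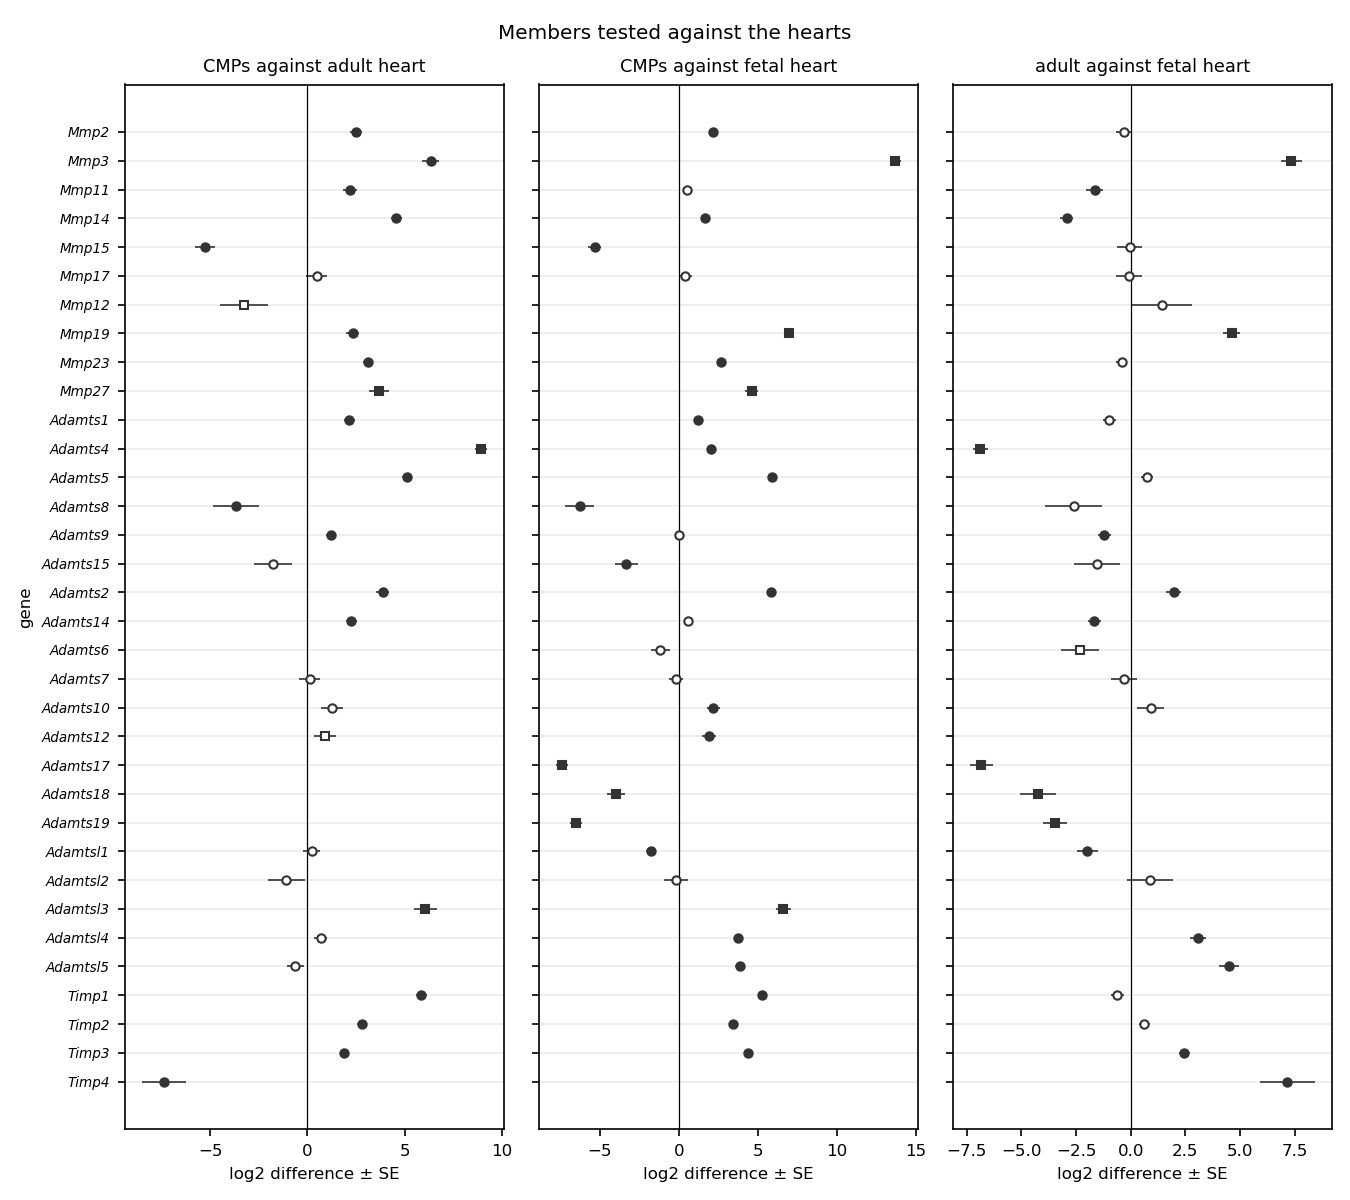
Differences of every tested member in CMPs against adult heart (left), CMPs against fetal heart (middle) and adult against fetal heart (right), in log2 units with the standard error of the fit as bars. Filled symbols have an adjusted p under 0.05, and squares mark members with no array of 1 source well above background. For these too the fitted difference is drawn, and not the bound that the text gives. Mmp3 is the point farthest right in the middle panel, at 13.68.

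Among the CMPs themselves the picture was flatter. Postmortem against living CMPs gave no call among the 30 members tested (limma; 9 had an unadjusted p under 0.05, as had 11.1% of all genes tested), with 0.00526% of 19013 genes called higher and 0.0999% called lower. Ventricular against atrial CMPs gave none either (limma; 13 of 30 had an unadjusted p under 0.05, as had 8.26% of all genes tested), and here 0% of all 18912 genes were called higher and 0% lower. The first count was 8 (beside 8.88% of all genes) when the ventricular postmortem array was left out and 7 (8.32%) when the ventricular living one was. Without the living atrial or ventricular array the second was 10 (8.99%) or 9 (7.58%). Such fits take their spread from the fetal pair alone, whose arrays differ in genotype.

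Timp1, a secreted inhibitor induced by growth factors and cytokines, had levels of 8.14 and 8.28 in ventricular and atrial postmortem CMPs, 8.74 and 8.48 in ventricular and atrial living CMPs, 2.55 in adult heart, and 2.90 and 3.41 in wild-type and transgenic fetal heart. All 4 CMP arrays lay above all 3 hearts. Timp1 was higher in CMPs by 5.86 ± 0.27 (SE) against adult heart (58.2-fold, adjusted p = 0.000263) and by 5.25 ± 0.21 against fetal heart (38.1-fold, adjusted p = 0.000107). Timp2, which besides inhibiting MMPs bridges pro-MMP2 to MMP14 at the cell surface, had 9.32 and 10.04 in ventricular and atrial postmortem CMPs, 8.92 and 9.32 in ventricular and atrial living CMPs, 6.61 in adult heart, and 5.97 and 5.98 in fetal heart. Another Timp2 probe gave differences of the same sign in all 5 comparisons, with 4.25 in place of 3.42 for CMPs against fetal heart. Timp2 was higher in CMPs by 2.79 ± 0.22 against adult heart (adjusted p = 0.000693) and by 3.42 ± 0.17 against fetal heart (adjusted p = 0.000172).

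Timp3, the matrix-bound inhibitor that also blocks ADAMTS4 and ADAMTS5, had 7.67 and 8.45 in ventricular and atrial postmortem CMPs, 7.91 and 8.40 in ventricular and atrial living CMPs, 6.20 in adult heart, and 3.61 and 3.87 in fetal heart. The 3 sources stood in steps, CMPs over adult heart by 1.91 ± 0.22 (adjusted p = 0.00168) and adult over fetal heart by 2.46 ± 0.24 (adjusted p = 0.00205). Timp4, the family member best known from adult heart muscle, ran the other way. Its level was 2.66 in adult heart, while in CMPs it was well above background on the postmortem atrial array alone, at -3.33, and among the fetal hearts on the wild-type array alone, at -2.93. The other CMP arrays read -4.29, -6.01 and -5.17 (postmortem ventricular, living ventricular, living atrial) and the transgenic fetal heart -6.09, all without a signal well above background. Timp4 was lower in CMPs than in adult heart (-7.36 ± 1.14, adjusted p = 0.00442) and higher in adult than in fetal heart by 7.17 ± 1.25 (adjusted p = 0.0101); 1 of 4 CMP arrays and 1 of 2 fetal arrays measured it. The cardiomyocyte markers given above were likewise far lower in CMPs than in adult heart. Between adult and fetal heart the median difference of these 9 markers was 0.98, with 7 positive and 2 negative. The fit called 2 of them higher and 1 lower in adult heart, beside 18.8% and 18.2% of all genes. The part of cardiomyocytes in the Timp4 differences was not tested.

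**Figure D3:**
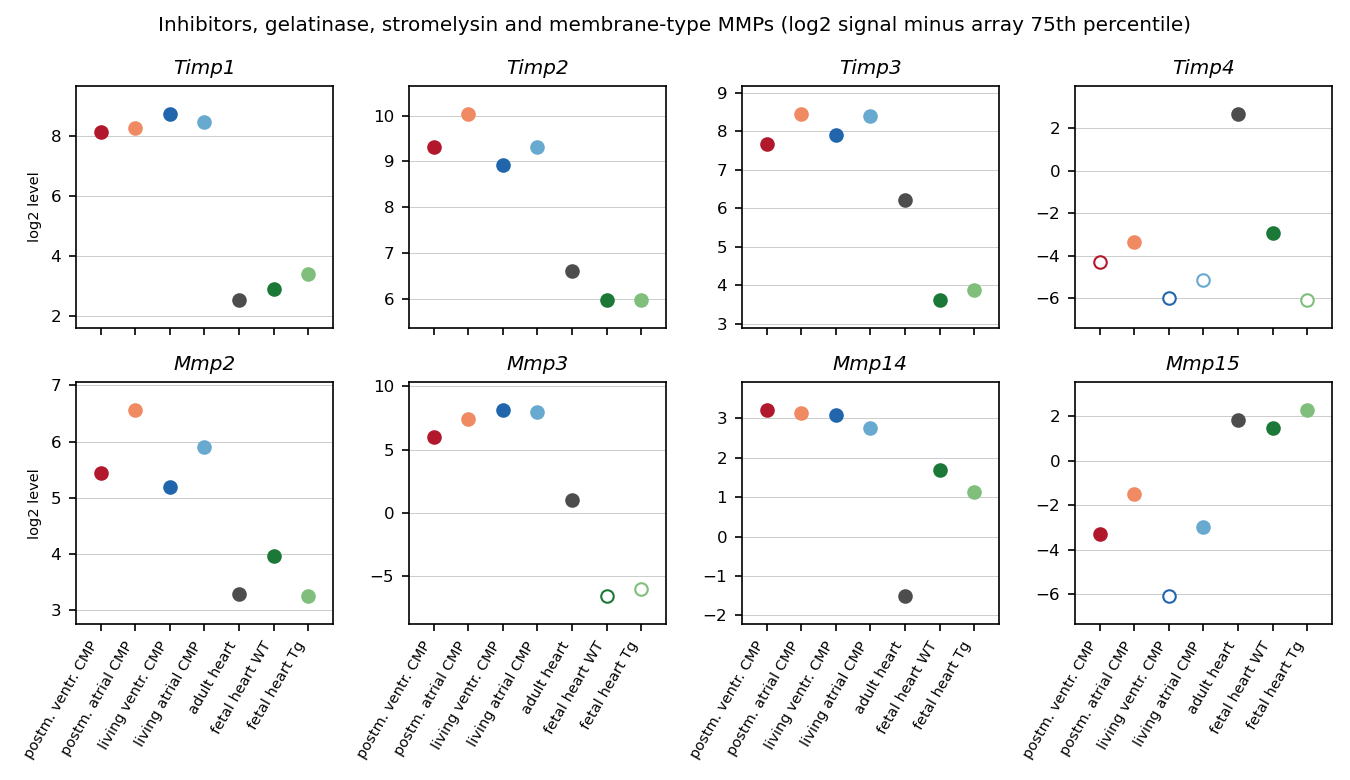
Levels on each array of the 4 TIMPs, of Mmp2, Mmp3, Mmp14 and Mmp15, in log2 signal minus the array's 75th percentile (each panel has its own scale). Open circles were not well above background. CMPs lie above the hearts for Timp1, Timp2, Timp3, Mmp2, Mmp3 and Mmp14 and below them for Mmp15, while adult heart alone is high for Timp4.

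Mmp2, gelatinase A, which cleaves denatured collagen and type IV collagen, had 5.43 and 6.56 in ventricular and atrial postmortem CMPs, 5.19 and 5.89 in ventricular and atrial living CMPs, 3.27 in adult heart, and 3.95 and 3.24 in wild-type and transgenic fetal heart. CMPs were higher by 2.49 ± 0.31 against adult heart (adjusted p = 0.00227) and by 2.17 ± 0.24 against fetal heart (adjusted p = 0.00144). In both source states the ventricular level was the lower one, with a difference of -0.92 ± 0.28 that was not called (adjusted p = 0.478). Mmp9, gelatinase B, was well above background on the wild-type fetal array alone, at -4.04.

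Mmp3, stromelysin-1, which cuts proteoglycans and activates other pro-MMPs, had the widest range of any member between sources. Its probe (chr9:7455751-7455810, mm9) read 6.03 and 7.43 in ventricular and atrial postmortem CMPs, 8.11 and 7.98 in ventricular and atrial living CMPs, 1.05 in adult heart, and -6.58 and -6.01 in the fetal hearts, where it was not well above background. CMPs were higher than adult heart by 6.34 ± 0.45 (81.0-fold, adjusted p = 0.000549). Against fetal heart CMPs were at least 3817-fold higher (adjusted p = 4.79e-05), and adult heart was at least 47.2-fold higher than fetal heart (adjusted p = 0.000924). Such bounds set the brighter group against the dimmest signal that an array reads as well above background. They hold for the processed signal alone: with normexp background correction the fitted Mmp3 difference between CMPs and fetal heart was 9.62 in place of 13.68. Both postmortem arrays read below both living arrays, with a difference of -1.31 ± 0.40 that was not called (adjusted p = 0.357). Within the ventricular pair it was -2.08 and within the atrial pair -0.54.

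Mmp10, stromelysin-2, was well above background on the postmortem ventricular array alone, at -3.53. Mmp11, stromelysin-3, had 2.80 to 3.46 in CMPs, 0.81 in adult heart, and 2.86 and 2.07 in fetal heart. It was higher in CMPs than in adult heart by 2.19 ± 0.35 (adjusted p = 0.0047), and the CMP and fetal ranges overlapped (0.53 ± 0.27, adjusted p = 0.158). Among the collagenases, which make the first cut in fibrillar collagen, Mmp1a and Mmp13 gave no signal well above background. Mmp8, the collagenase stored in neutrophils and also made by stromal cells, was at -3.50 in ventricular postmortem CMPs and not well above background in atrial ones (-6.10), against -1.08 and -2.23 in ventricular and atrial living CMPs, and it was not well above background in any heart. Both postmortem arrays lay below both living arrays (-3.14 ± 0.52, adjusted p = 0.194), by less with normexp background correction (-1.17). Neutrophil markers summed to 75.2 and 62.2 in ventricular and atrial postmortem CMPs and to 90.8 and 79.8 in ventricular and atrial living CMPs. Csf3r, the largest term of these sums, had 6.11 and 5.62 in postmortem and 6.34 and 6.11 in living ones. The part of neutrophils in the Mmp8 levels was not tested. Of the 10 neutrophil markers Elane, Camp, Csf3r and Ly6g were well above background on all 4 CMP arrays, Mpo on 2, S100a8 on 1, and S100a9, Ngp, Ltf and Cxcr2 on none. The list was split between states: of 4 neutrophil markers tested, 2 were higher and 2 lower in postmortem than in living CMPs, with no call. Camp had 0.95 and -2.72 in ventricular and atrial postmortem CMPs and 2.46 and 2.62 in ventricular and atrial living CMPs, the same order of states as Mmp8. Ly6g ran the other way within each chamber, with 0.98 and 3.36 in ventricular and atrial postmortem CMPs and 0.52 and 1.38 in living ones. Mmp1b was well above background in the ventricular CMPs of both states, at -2.96 in postmortem and -1.45 in living ones, and not in the atrial ones (-5.45 and -4.15) or the hearts. Ventricular CMPs were at least 4.34-fold higher for Mmp1b, without a call (adjusted p = 0.197). Signal shared between Mmp1a and Mmp1b, which are near copies, was not tested.

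Seen along the chromosome, the 10 cluster genes did not share a pattern. Mmp3 was bright in all 4 CMP arrays. On the probe used, Mmp27 was well above background on all 4 and on no heart array, at -1.49 and -2.16 in ventricular and atrial postmortem CMPs and -1.83 and -1.50 in ventricular and atrial living CMPs. On it CMPs were at least 6.81-fold above fetal heart (limma adjusted p = 0.000703) and at least 3.17-fold above adult heart (adjusted p = 0.00325). Another Mmp27 probe was above background on the living atrial array alone (-3.63), with differences of 0.90 against fetal and 0.00 against adult heart. Mmp1b, Mmp8 and Mmp10 were above background on 1 to 3 CMP arrays. Mmp12, macrophage elastase, was on the probe used above background in adult heart (-2.56) and the transgenic fetal heart (-2.29) and in no CMP culture. Another Mmp12 probe was above background on the postmortem atrial array alone, at -3.50. On the probe used, the Mmp12 difference of CMPs from adult heart was not called (at least 3.87-fold lower, limma adjusted p = 0.0777). The summed macrophage markers given above were higher in adult heart than in CMPs as well, and their part in it was not tested. Mmp7, Mmp13, Mmp1a and Mmp20 had no signal well above background anywhere. Of the 7 genes whose windows held the AP-1 letters, Mmp3, Mmp1b and Mmp10 were thus seen in CMPs on the probes used. Mmp12 was seen in hearts alone on the probe used and on the postmortem atrial array on the other, and Mmp7, Mmp13 and Mmp1a on no array.

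**Figure D4:**
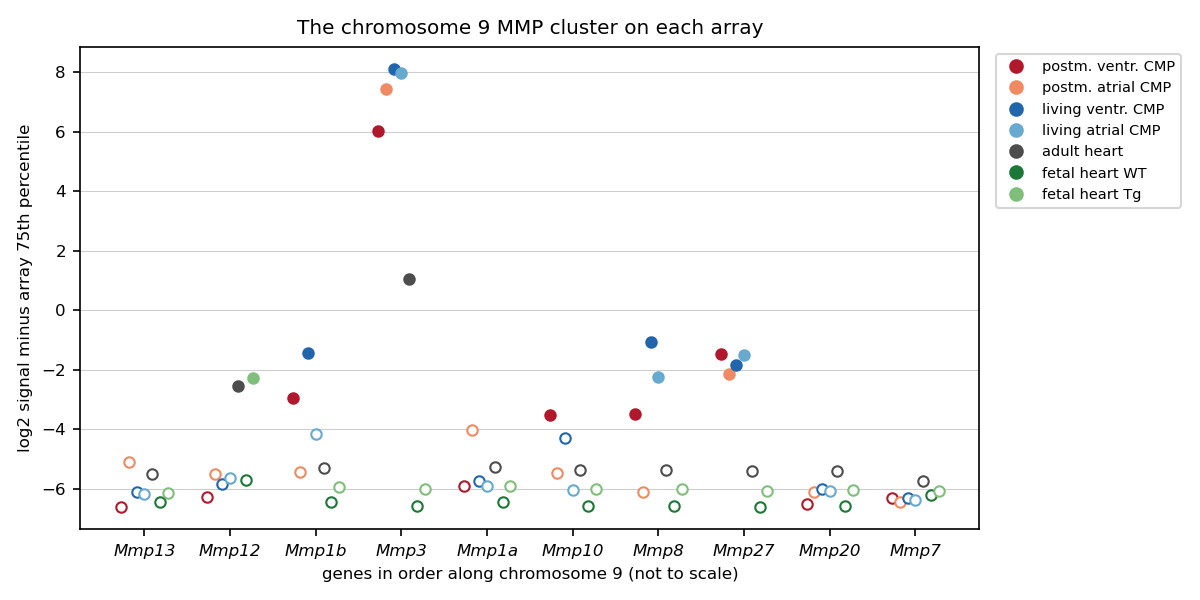
Levels of the 10 chromosome 9 MMP genes, in their order along the chromosome, on each array in log2 signal minus the array's 75th percentile. Filled circles were well above background and open circles were not. Mmp3 reads 6.03 to 8.11 in CMPs, and most points of its neighbours are open.

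Of the membrane-type MMPs, Mmp14, which activates pro-MMP2 at the cell surface, had 3.21 and 3.14 in ventricular and atrial postmortem CMPs, 3.09 and 2.76 in ventricular and atrial living CMPs, -1.52 in adult heart, and 1.68 and 1.12 in fetal heart. CMPs were higher by 4.57 ± 0.28 against adult heart (23.8-fold, adjusted p = 0.000382) and by 1.65 ± 0.21 against fetal heart (adjusted p = 0.00235), and adult heart was lower than fetal heart (-2.92 ± 0.30, adjusted p = 0.00238). Mmp15, another membrane-type enzyme, went the opposite way. Its levels were -3.28 and -1.49 in ventricular and atrial postmortem CMPs, -6.09 (not well above background) and -2.99 in ventricular and atrial living CMPs, 1.81 in adult heart, and 1.45 and 2.26 in fetal heart. CMPs were lower than adult heart (-5.28 ± 0.52, adjusted p = 0.00111) and than fetal heart (-5.32 ± 0.40, adjusted p = 0.000458). Within CMPs the Mmp15 level was lower in ventricular than in atrial cells in both states (-2.44 ± 0.46, adjusted p = 0.24), and higher in postmortem than in living cells of both chambers (2.15 ± 0.46, adjusted p = 0.257), neither of them a call. With normexp background correction these differences were -0.78 and 0.52.

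Mmp16 was well above background on 3 of the 4 CMP arrays, at -2.83 and -2.28 in ventricular and atrial postmortem CMPs and -3.49 in atrial living CMPs, and on no heart array. Mmp17, anchored by a lipid, had 0.45 and -2.33 in ventricular and atrial postmortem CMPs, 0.68 and -0.26 in ventricular and atrial living CMPs, -0.85 in adult heart, and -0.54 and -0.99 in fetal heart. Its ventricular levels were above the atrial ones (1.86 ± 0.48, adjusted p = 0.408), and no comparison called it. Mmp24 was above background on the postmortem atrial array alone, at -3.67, and Mmp25 on none.

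Mmp19 and Mmp23 were the other MMPs with a clear signal in CMPs. Mmp19 had 0.58 and 0.85 in ventricular and atrial postmortem CMPs, 1.09 and 0.77 in ventricular and atrial living CMPs, and -1.50 in adult heart, and it was not well above background in fetal heart (-6.04 and -6.20). CMPs were at least 40.3-fold above fetal heart (adjusted p = 0.000107), CMPs were above adult heart by 2.32 ± 0.35 (adjusted p = 0.00423), and adult heart was at least 8.06-fold above fetal heart (adjusted p = 0.00154). Mmp23, a membrane protein of the family, read 4.88 to 5.19 over the 4 CMP arrays, 1.96 in adult heart, and 2.14 and 2.61 in fetal heart, so that CMPs were 8.58-fold above adult heart (adjusted p = 0.000709) and 6.41-fold above fetal heart (adjusted p = 0.00042).

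The ADAMTS enzymes that cleave the large proteoglycans versican and aggrecan have 7 members here. Adamts5, an aggrecanase, had 3.61 and 3.31 in ventricular and atrial postmortem CMPs, 3.92 and 3.52 in ventricular and atrial living CMPs, -1.56 in adult heart, and -2.53 and -2.10 in fetal heart. CMPs were higher by 5.14 ± 0.26 against adult heart (35.4-fold, adjusted p = 0.000288) and by 5.90 ± 0.20 against fetal heart (59.9-fold, adjusted p = 8.35e-05), and another probe gave 4.83 and 5.66. Adamts1, its neighbour on chromosome 16, read 4.26 to 5.00 in CMPs, 2.52 in adult heart, and 3.21 and 3.78 in fetal heart. It was higher in CMPs by 2.16 ± 0.28 (adjusted p = 0.00261) and 1.19 ± 0.22 (adjusted p = 0.00773) against adult and fetal heart.

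Adamts4, the other main aggrecanase, depended on the probe. The probe used (chr1:173190709-173190768, mm9) had 3.84 and 2.46 in ventricular and atrial postmortem CMPs, 3.93 and 3.29 in ventricular and atrial living CMPs, -5.54 in adult heart, where it was not well above background, and 1.58 and 1.11 in fetal heart. On it CMPs were at least 111-fold above adult heart (adjusted p = 0.000188), and adult heart was at least 27.0-fold below fetal heart (adjusted p = 0.000449). Another probe upstream of it (chr1:173189952-173190011) was well above background on all 7 arrays and read -1.92 in adult heart, with a difference of 3.14 for CMPs against adult heart, and against -0.57 and -1.28 in wild-type and transgenic fetal heart. The direction was the same on both probes and the size was not. Against fetal heart the probes gave 2.04 and 2.14 (adjusted p = 0.00175 on the probe used).

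On the probes used, Adamts8 and Adamts15, close together on chromosome 9 outside the MMP cluster, were bright in fetal heart and on the postmortem atrial array. Adamts15 had -3.93 and 2.74 in ventricular and atrial postmortem CMPs, -2.95 and -0.12 in ventricular and atrial living CMPs, 0.70 in adult heart, and 2.58 and 1.92 in fetal heart. Ventricular CMPs lay below atrial CMPs in both states, with differences of -6.66 in postmortem and -2.82 in living ones, although the comparison of chambers did not call the gene (-4.74 ± 0.87, adjusted p = 0.231). It was lower in CMPs than in fetal heart (-3.32 ± 0.75, adjusted p = 0.0158), with the postmortem atrial array above both fetal arrays. The Adamts8 probe (chr9:30770384-30770443, mm9) had -4.67 and 0.17 in ventricular and atrial postmortem CMPs, -4.93 and -4.69 in ventricular and atrial living CMPs, 0.13 in adult heart, and 2.23 and 3.25 in fetal heart. On this probe, the postmortem atrial array alone of the CMPs was well above background. CMPs were lower than fetal heart (-6.27 ± 0.92, adjusted p = 0.00348), but another Adamts8 probe, above background on 6 arrays, gave -0.74, with 0.03 against adult heart. That probe read -2.79 on the postmortem atrial array and -3.70 to -3.54 on the other CMP arrays. The call against adult heart (-3.66 ± 1.18, adjusted p = 0.0483) was lost under 4 of the other settings and without either fetal array, with the mean of its probes among them (-1.82, adjusted p = 0.109).

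Adamts9 read 1.16 to 2.55 in CMPs, 0.76 in adult heart, and 2.16 and 1.76 in fetal heart. It was higher in CMPs than in adult heart by 1.20 ± 0.26 (adjusted p = 0.013) and lower in adult than in fetal heart (-1.20 ± 0.28, adjusted p = 0.0244). Adamts20, the last of the 7, was not well above background anywhere.

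Removal of the amino-terminal propeptide of fibrillar procollagens is the task of Adamts2, Adamts3 and Adamts14. Adamts2 had 8.33 and 7.73 in ventricular and atrial postmortem CMPs, 8.62 and 8.64 in ventricular and atrial living CMPs, 4.45 in adult heart, and 2.84 and 2.14 in fetal heart. It was higher in CMPs by 3.88 ± 0.33 against adult heart (14.7-fold, adjusted p = 0.000821) and by 5.84 ± 0.26 against fetal heart (57.3-fold, adjusted p = 0.000129), and its other probe gave 4.70 and 6.60. Adamts14 had 2.18 and 0.24 in ventricular and atrial postmortem CMPs, 2.60 and 1.08 in ventricular and atrial living CMPs, -0.74 in adult heart, and 1.09 and 0.76 in fetal heart. Both ventricular arrays lay above both atrial arrays (1.73 ± 0.24, adjusted p = 0.148). Adamts14 was higher in CMPs than in adult heart by 2.27 ± 0.26 (adjusted p = 0.00183), and lower in adult than in fetal heart (-1.67 ± 0.29, adjusted p = 0.00998). For Adamts3 the probe used gave no signal well above background, and the other one did on 1 array.

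The 9 further ADAMTS genes had mostly weak signal in CMPs. Adamts17, Adamts18 and Adamts19 were well above background on both fetal arrays and on no other, with 1.60 and 1.02, -0.24 and -2.01, and -0.13 and 0.56 in wild-type and transgenic fetal heart. CMPs were at least 56.6-fold, 10.4-fold and 26.5-fold lower than fetal heart for these genes (adjusted p = 0.000172, 0.00327 and 0.000264), and adult heart at least 26.4-fold, 4.88-fold and 11.0-fold lower (adjusted p = 0.00129, 0.0136 and 0.00827). Other probes of Adamts17 and Adamts18 gave smaller differences of -2.23 and -1.74 for CMPs against fetal heart. Adamts16 was above background on the wild-type fetal array alone, at -2.19. The mesothelial markers, summed above, were likewise highest in fetal heart, and the part of those cells in these differences was not tested.

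Adamts7 and Adamts12, both known to cleave cartilage oligomeric matrix protein, and Adamts10, which acts on fibrillin microfibrils, were above background on all 4 CMP arrays. Adamts10 read -0.12 to 0.08 in CMPs, -1.28 in adult heart, and -1.47 and -2.91 in fetal heart, higher in CMPs than in fetal heart by 2.18 ± 0.44 (adjusted p = 0.0102). Adamts12 had -1.82 and -3.36 in ventricular and atrial postmortem CMPs and -1.63 and -3.43 in ventricular and atrial living CMPs. It was higher in CMPs than in fetal heart by 1.90 ± 0.45 (adjusted p = 0.0178). Adamts7 had -0.52 and -1.60 in ventricular and atrial postmortem CMPs, 0.23 and 0.31 in ventricular and atrial living CMPs, -0.51 in adult heart, and 0.37 and -0.79 in fetal heart, and no comparison called it. Adamts6 was above background on both living CMP arrays (-3.46 ventricular, -2.93 atrial) and both fetal arrays (-3.38 and -2.50), and not on the postmortem CMP arrays (-4.07 ventricular, -6.00 atrial) or in adult heart. Postmortem minus living, it differed by -0.61 in ventricular and -3.07 in atrial cells, without a call (-1.84 ± 0.69, adjusted p = 0.426; -0.45 with normexp). Adamts13, the protease of von Willebrand factor, gave no signal well above background.

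The 5 ADAMTS-like proteins share the carrier domains of the family and lack the protease, and several bind fibrillin microfibrils. Adamtsl3 was well above background on the 4 CMP arrays and on no heart array, with 0.47 and 0.21 in ventricular and atrial postmortem CMPs and 0.90 and 1.34 in ventricular and atrial living CMPs. It was at least 37.9-fold above fetal heart (adjusted p = 0.000382) and at least 17.6-fold above adult heart (adjusted p = 0.00111). Adamtsl4 had 2.92 and 3.38 in ventricular and atrial postmortem CMPs, 2.41 and 3.66 in ventricular and atrial living CMPs, 2.41 in adult heart, and -0.97 and -0.36 in fetal heart. Adamtsl5 had 1.90 and 3.38 in ventricular and atrial postmortem CMPs, 1.14 and 1.25 in ventricular and atrial living CMPs, 2.53 in adult heart, and -2.20 and -1.73 in fetal heart. Both were higher in CMPs than in fetal heart, by 3.76 ± 0.26 (adjusted p = 0.000382) and 3.88 ± 0.33 (adjusted p = 0.000647), and higher in adult than in fetal heart, by 3.08 ± 0.37 (adjusted p = 0.00361) and 4.49 ± 0.46 (adjusted p = 0.00237). Against adult heart neither was called. Another Adamtsl5 probe gave 1.94 for CMPs against fetal heart.

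Adamtsl1 read -2.90 to -2.24 in CMPs, -2.74 in adult heart, and -0.57 and -0.95 in fetal heart, and was lower than fetal heart both in CMPs (-1.76 ± 0.33, adjusted p = 0.00819) and in adult heart (-1.98 ± 0.47, adjusted p = 0.0253). Adamtsl2, which binds a latent transforming growth factor beta binding protein, had -0.84 and -3.35 in ventricular and atrial postmortem CMPs, -0.23 and 1.15 in ventricular and atrial living CMPs, 0.26 in adult heart, and -0.53 and -0.73 in fetal heart. Both postmortem arrays lay below both living arrays (-2.55 ± 0.87, adjusted p = 0.387).

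An interaction term asked whether the postmortem difference depended on the chamber. It has 1 residual degree of freedom, that of the wild-type and transgenic fetal hearts, and 1 array per cell of the design. Its standard errors and p-values rest on a spread of that fetal pair shared over genes of like signal. The term so compares these arrays and holds no scatter between cultures. Of the 30 members tested, 2 were called, beside 2.41% of the 19013 genes tested. For Adamts15 the postmortem minus living difference was -0.98 in ventricular and 2.86 in atrial cells, and these differed by -3.84 ± 0.71 (adjusted p = 1.33e-05). For Adamtsl2 it was -0.61 in ventricular and -4.50 in atrial cells, and these differed by 3.89 ± 0.80 (adjusted p = 0.000135). After quantile normalization neither was called. Each of these terms holds the postmortem atrial array, which stood apart. Smooth muscle and pericyte markers summed to 372 and 190 in ventricular and atrial postmortem CMPs and to 346 and 248 in ventricular and atrial living CMPs. The list was split: of 7 tested, 5 were higher and 2, Rgs5 and Cspg4, lower in ventricular than in atrial CMPs, with no call. Rgs5 had -2.60 and 3.25 in ventricular and atrial postmortem CMPs and -5.54 (not well above background) and 1.59 in living ones. Cspg4 had 0.05 and 2.95, and -1.67 and -0.61. The part of such cells in the chamber differences was not tested.

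**Figure D5:**
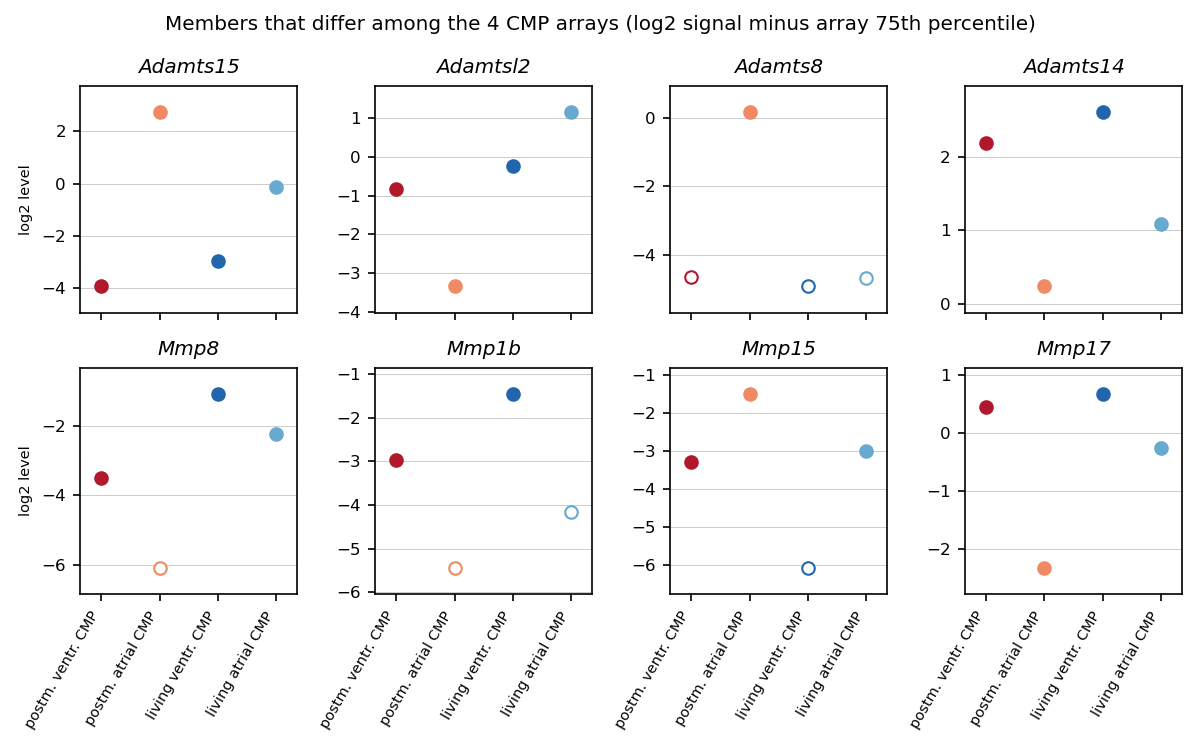
Levels on the 4 CMP arrays of Adamts15, Adamtsl2, Adamts8, Adamts14, Mmp8, Mmp1b, Mmp15 and Mmp17, in log2 signal minus the array's 75th percentile (each panel has its own scale), with open circles where the probe was not well above background. The ventricular points lie above the atrial points of the same state for Adamts14, Mmp1b, Mmp8 and Mmp17 and below them for Adamts15 and Mmp15.

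Genes that act on the same proteases were counted from lists that were chosen with results of these data known. None of the tested genes of the 4 lists was called in postmortem against living CMPs (0.00526% of all genes higher, 0.0999% lower) or in ventricular against atrial CMPs (0% and 0%). Of all genes tested, 22.8% were higher and 25.2% lower in CMPs than in fetal heart. Against adult heart 24.6% were higher and 24.6% lower in CMPs. In adult against fetal heart these shares were 18.8% and 18.2%. Of the other inhibitors, clearance receptors and procollagen C-proteinase enhancers, 9 of 11 tested were higher and 1 lower in CMPs than in fetal heart. The procollagen C-proteinase enhancer Pcolce2 was higher by 6.70, and the clearance receptor Lrp1 by 4.07. Against adult heart 5 of 11 were higher and 2 lower, with Reck, a membrane-anchored MMP inhibitor, higher by 4.42 and Wfdc1 lower (-4.06). Of the activators and other matrix proteases, 15 of 25 tested were higher and 2 lower in CMPs than in fetal heart, and 10 of 25 higher and 5 lower than in adult heart. Adam9 was higher by 3.21 and 3.35 against fetal and adult heart, and cathepsin S (Ctss), abundant in macrophages, was lower (-5.03 and -7.32).

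Of the substrates of these proteases, 8 of 14 tested were higher and 3 lower in CMPs than in fetal heart, with 8 positive and 6 negative differences. Against adult heart 10 of 12 were higher and 1 lower in CMPs. Fibrillin-1 (Fbn1) was higher by 2.78 and 4.00 against fetal and adult heart, and the cartilage collagen gene Col2a1, not well above background in adult heart, was at least 103-fold above it. In adult against fetal heart none of 14 was higher and 7 were lower, among them the proteoglycan versican (Vcan, -3.56) and elastin (Eln, -3.26). Of the signals and transcription factors that induce MMP genes, 10 of 18 tested were higher and 2 lower in CMPs than in fetal heart, and 7 of 20 higher and 4 lower than in adult heart. Interleukin-6 (Il6) was not well above background in any heart and was at least 271-fold above fetal and at least 126-fold above adult heart in CMPs. Its levels were 3.55 and -0.29 in ventricular and atrial postmortem CMPs and 5.95 and 5.07 in ventricular and atrial living CMPs. This was the same order of states as for Mmp3 and Mmp8, without a call (limma, -3.88 ± 0.70, adjusted p = 0.206). Of 19 such signals tested between states, 8 differences were positive and 11 negative. A link of Il6 with Mmp3 or Mmp8 was not tested. Of the AP-1 subunits, Fos, named here after its values were seen, had 4.98 on the postmortem atrial array, against 0.24 on the postmortem ventricular array and 1.44 and 1.43 in ventricular and atrial living CMPs.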

How the data were processed

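Expression was measured in 7 RNA samples on single-colour Agilent mouse 8x60K arrays. The deposited intensity values are processed signals of Agilent Feature Extraction 10.7.3.1, per the file headers, while the submitters' processing notes name version 9.5.3. The deposited series table holds log2 values from which the authors had subtracted a constant per array, and was used as an alternative.

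Here the processed signals were put on a log2 scale and the 75th percentile of the array was subtracted, spots of a probe were averaged, and 11 of 55670 probes were left out because an array had outlier flags on all their spots. For a gene with several probes, the one with the highest mean over all arrays was used. One limma model (3.58.1, R 4.3.3) with a trended variance covered all 7 arrays, with terms for source and CMP chamber and 2 residual degrees of freedom. Tests were two-sided with Benjamini-Hochberg adjustment over all genes tested (threshold 0.05), and the script was tested on simulated data. Alternatives were background correction (normexp, offset 50), quantile normalization, the deposited table, filters, probe averaging, an untrended variance and leaving out each array.

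Members given in every array are the TIMPs and, per comparison, the 4 largest differences each way, and others are named within their group. Members and lists were chosen with earlier results of these data known.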

Additional observations from a re-analysis of the deposited data

Results flagged for a closer look

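Among 35 members with a level in the CMP group of 4 arrays, a gap test (Dixon's) set apart 2, and chance sets apart about 1 in 20. In both the postmortem atrial array was the high one. Adamts8 read 0.17 there on the probe used, and the other 3 CMP arrays were not well above background. Another Adamts8 probe read -2.79 there, against -3.70 to -3.54 on those 3. Mmp11 read 3.46 there, and the other CMP arrays lay between 2.80 and 2.89.

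The postmortem minus living difference differed between chambers for Adamts15 (ventricular minus atrial -3.84 ± 0.71 SE, adjusted p = 1.33e-05, limma) and for Adamtsl2 (3.89 ± 0.80, adjusted p = 0.000135), each from 1 array per cell of the design.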

How the results depend on the processing

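With 2 residual degrees of freedom, and adult heart as 1 array, these tests compare single arrays more than conditions. Among members followed one by one, 280 results kept their direction and side of the threshold under other settings and 5 lost their call. Leaving out 1 array kept 226, gave a call to 34, lost 2 and turned 2; Mmp12 in CMPs against adult heart was called without any 1 of the CMP or fetal arrays. Where a gene had to be above background on every array of both sides, fewer members were tested. The count for CMPs against fetal heart was then 15 (beside 45.5% of all genes tested), and that for adult against fetal heart 9 (beside 32.7%). After quantile normalization the interaction had 0 calls, and the cause was not tested. With 1 array left out, postmortem against living CMPs gave 0 to 8 calls (up to 8.88% of all genes), and ventricular against atrial CMPs 0 to 10 (up to 8.99%). The first count was lower without an atrial CMP array than without a ventricular one. The second was lower without a postmortem array than without a living one. Each such fit leaves 1 array in a group. Without an atrial CMP array the Adamts15 difference between postmortem and living CMPs was the ventricular one, -0.98, and over all such fits it lay between -0.98 and 2.86. The Adamts8 call for CMPs against adult heart was lost with normexp (adjusted p = 0.0574), quantile normalization (0.0699), the mean of probes (0.109), an untrended variance (0.0789) and without either fetal array (0.101 at most). Adamts18 in adult against fetal heart lost its call with normexp (-1.22, adjusted p = 0.0841), and the median of all genes in that comparison was then 0.14 in place of 0.09. Normexp with an offset of 50, which lifts dim signals, moved 31 of 40 members' results by over 1.5-fold, all 31 to a smaller difference. No paired analysis was possible because the labels give no replicate numbers; chamber, which they do give in both states, was a term of the fit, and without it 0 members were called in postmortem against living CMPs. Slide and scan could not be fitted since all arrays share them.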
